A study of Caenorhabditis elegans with 6 samples.

Results

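The genes described here are the *abu*, *pqn* and *phat* genes of *Caenorhabditis elegans* together with *marg-1*. They were taken by a rule on names, as every gene whose deposited name starts with abu-, phat- or pqn- or equals marg-1. The rule was set with earlier results of these data known. This gave 84 genes out of 47157 gene IDs: 15 *abu*, 62 *pqn* and 6 *phat* genes and *marg-1*. Of these, 67 reached the level needed for testing, a CPM (reads on the gene, scaled to a fixed total of reads on genes) of at least 1 in at least 3 libraries.

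The pharynx, the muscular feeding tube of the worm, is lined by its own cuticle, which contains chitin and differs from the collagen cuticle of the body. It is shed and rebuilt at each molt. Earlier work placed several *abu* and *pqn* proteins in this lining and found that their transcripts cycle with the molts. The *abu* genes were named for activation when the unfolded protein response is blocked, and the *pqn* genes for domains rich in glutamine and asparagine that resemble those of prions. The second name rests on composition, so it also covers proteins of many other tissues and functions. The *phat* genes are named for their relation to toxins and for expression in the pharyngeal glands, which secrete into the lumen.

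RNA from animals at the young adult stage was sequenced from the *blmp-1(s71)* mutant (3 libraries) and from the wild-type strain N2 (3 libraries). The product of *blmp-1* is the worm's BLIMP1 relative, a DNA-binding regulator known from work on developmental timing and the cuticle. Animals of both groups were synchronized as first-stage larvae after bleaching and raised on plates. No treatment separates the groups other than the genotype, and nothing in the labels says how the replicates were kept apart beyond the word biological.

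The recovered totals ran from 6586154 to 13711720 reads on genes in the mutant libraries and from 5255125 to 15218178 in the wild-type libraries. *blmp-1* itself had 157, 215 and 92 reads in *blmp-1(s71)* libraries 1, 2 and 3, against 61, 130 and 165 in wild-type libraries 1, 2 and 3. The labels do not describe the s71 lesion, so these reads do not check the genotype. The cuticle collagen *col-124*, the gene with the smallest p of all, stood at 61.0, 64.1 and 52.4 scaled CPM in the mutant libraries, against 5378, 4931 and 5098 in the wild-type libraries. By this gene all 3 mutant libraries were alike. Across all tested genes, however, *blmp-1(s71)* library 3 was closer to wild-type libraries 2 and 3 (Pearson r = 0.968 and 0.978 of log2 values across genes) than to mutant libraries 1 and 2 (r = 0.959 and 0.962). With wild-type library 1 its r was 0.960. Calls that change without *blmp-1(s71)* library 3 are given beside the genes named.

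In the mutant, 10 of the 67 tested genes rose and 2 fell, while 55 did not pass the test (limma on log2 of scaled CPM + 1, Benjamini-Hochberg adjusted p under 0.05 over all genes). The called genes were 11 *pqn* genes and *phat-6*, and no *abu* gene was among them. edgeR on the recovered reads called 8 members, all higher (17.7% of all genes were called, 7.86% as higher), and DESeq2 called 14 (27.5% of all genes). The limma count is 17.9% of the tested members, and 22.3% of all 13756 tested genes were called. In the upward direction it was 14.9% of the members, against 8.84% of all genes, and in the downward direction 2.99%, against 13.4% of all genes. The split depends on the scaling: 11 members rose and 0 fell with upper-quartile factors, and 12 rose and 0 fell with library size alone. These are 16.4% and 17.9% of the members as higher, against 14.8% and 16.6% of all genes, so the upward share is near that of all genes under both. Of the 10 genes that rose, 2 (*pqn-73* and *pqn-84*) reached testing through the mutant libraries alone. Without genes that passed the filter through 1 group only, a count added after the data were seen, 8 of 64 members (12.5%) and 8.01% of all genes rose. The RNA is of whole animals, so fewer cells of a type and less RNA per cell cannot be told apart. The median log2 fold change was 0.39 over the tested members and 0.07 over all genes, and without *blmp-1(s71)* library 1 it was 0.081 over the members and -0.028 over all genes. Scaled CPM are CPM divided by TMM factors, which align the libraries, and a fold change is mutant minus wild type on the log2(scaled CPM + 1) scale, which understates changes of low genes. Without *blmp-1(s71)* library 3, 22 of 64 tested members were called (34.4%, against 35.7% of all genes in that fit). In the upward direction it was 28.1% of the members, against 13.9% of all genes. Without *blmp-1(s71)* library 1 limma called 1 member (0.294% of all genes), and without library 2 it called 0 (0.257% of all genes), with 10 members at an unadjusted p under 0.05 in each. Without wild-type library 1, 2 or 3 it called 2, 2 or 1 members, against 2.01%, 1.31% and 1.71% of all genes. The calls thus dropped over all genes in these 5 fits, not in the members alone.

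**Figure D1:**
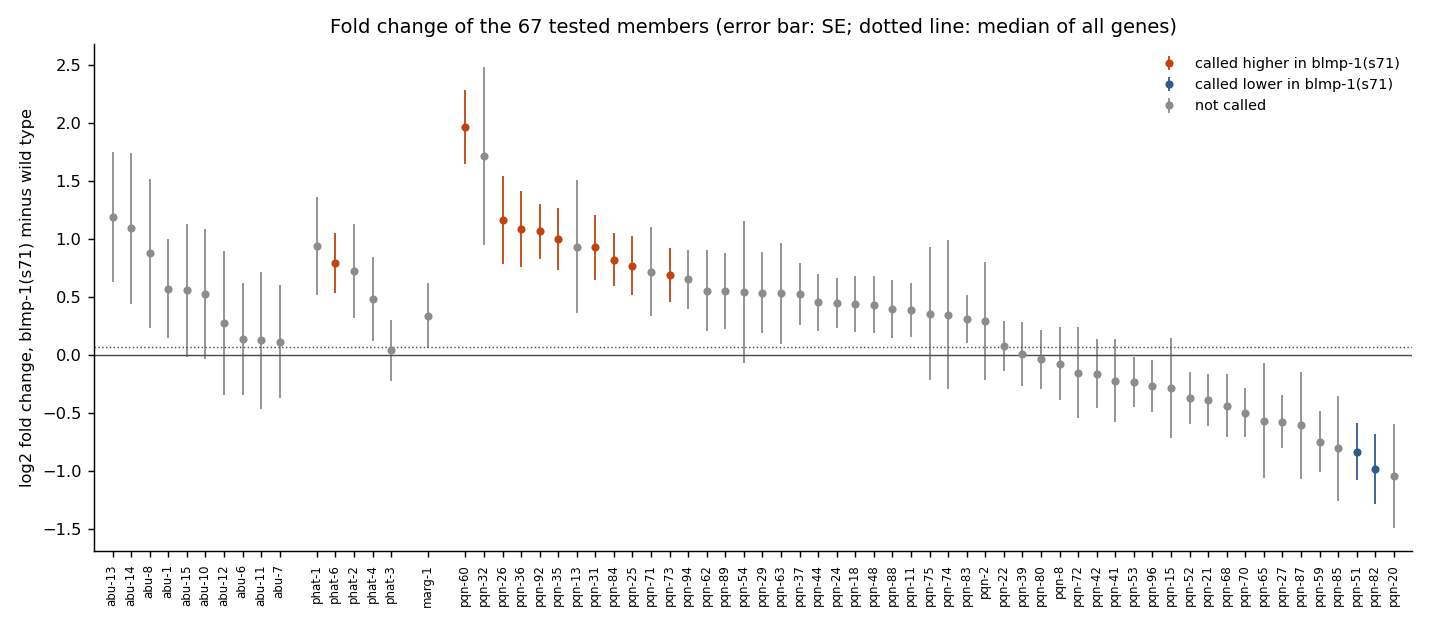
Log2 fold change (blmp-1(s71) minus wild type, y axis) of each of the 67 tested genes (x axis), in the order abu, phat, marg-1 and pqn, with the SE as error bar. All 10 abu and all 5 phat genes lay above 0, but of these phat-6 alone was called, while the pqn genes ran from 1.96 for pqn-60 to -1.04 for pqn-20.

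*pqn-60* showed the largest change and the smallest p of the group. The reference annotation lists it as *srlf-35*, a protein-coding gene (WBGene00004144) of 154 codons on chromosome V, 504028 to 504632 on the plus strand in WBcel235. Its scaled CPM was 19.4, 24.9 and 15.3 in *blmp-1(s71)* libraries 1, 2 and 3, against 2.34, 6.24 and 5.06 in wild-type libraries 1, 2 and 3. All mutant libraries lay above all wild-type libraries. The mean was 19.9 ± 4.85 CPM in the mutant and 4.55 ± 1.999 CPM in wild type (SD, n = 3 each). On the log2 scale it rose by 1.96 (SE 0.32), with a limma adjusted p of 0.0127. It also passed with each library in turn left out, except that without *blmp-1(s71)* library 2 it stood at 1.78 (limma adjusted p = 0.0739). The reference gives related names to *pqn-98* (*srlf-37*) and *pqn-97* (*srlf-36*), farther along chromosome V, which had at most 4 reads in any library and were not tested.

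*pqn-92* came next by p. It had 37.3, 39.8 and 31.9 scaled CPM in the mutant libraries, against 13.3, 20.6 and 17.1 in the wild-type libraries, without overlap. The log2 fold change was 1.06 (SE 0.23, limma adjusted p = 0.0337), and the call held in 3 of the 6 ways of omitting a library. *pqn-35*, with 33.6, 25.8 and 21.3 scaled CPM in the mutant, against 13.1, 9.51 and 16.4 in wild type, rose by 0.999 (SE 0.27, limma adjusted p = 0.0346). The groups did not overlap here either. Leaving out any library other than *blmp-1(s71)* library 3 ended the call of *pqn-35*.

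The other *pqn* genes that rose did so by 0.69 to 1.16 on the log2 scale. *pqn-26* had 12.4, 7.53 and 3.19 scaled CPM in *blmp-1(s71)* libraries 1, 2 and 3, against 2.11, 2.51 and 2.90 in wild type. Mutant library 3 lay just above the highest wild-type value, and the call (log2 fold change 1.16, limma adjusted p = 0.0479) held on omitting that library but no other. An exon of *pqn-26* overlaps *trt-1*, the telomerase reverse transcriptase gene on the opposite strand, which moved the other way (16.9 ± 5.31 CPM in the mutant and 31.3 ± 8.78 CPM in wild type, SD, n = 3 each). Whether the counting used strand is not given in the sources used here, so reads of the shared part cannot be assigned with certainty.

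*pqn-36* (log2 fold change 1.09), *pqn-31* (0.93) and *pqn-25* (0.77) also rose. *pqn-36* averaged 16.1 ± 5.66 CPM in the mutant and 7.15 ± 3.16 CPM in wild type. *pqn-31* averaged 28.4 ± 4.25 CPM in the mutant and 15.02 ± 5.22 CPM in wild type, and *pqn-25* 8.16 ± 1.216 CPM in the mutant and 4.38 ± 0.755 CPM in wild type (SD, n = 3 each). In none of these 3 genes did the groups overlap. edgeR did not call them (adjusted p = 0.0529, 0.0526 and 0.0529), whereas DESeq2 did. The calls of *pqn-31* and *pqn-25* were lost on omitting any library, and that of *pqn-36* on omitting any but *blmp-1(s71)* library 3.

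*pqn-84* and *pqn-73* were the lowest of the genes that rose. *pqn-84* had 1.27, 1.57 and 1.218 scaled CPM in the mutant libraries, against 0.468, 0.304 and 0.223 in the wild-type libraries. *pqn-73* had 1.69, 1.14 and 1.03 in the mutant, against 0.468, 0.380 and 0.372 in wild type. Both, and the uncalled *pqn-11*, passed the filter on low values through the mutant libraries alone, so a difference was built into their being tested. Both were called by edgeR, and DESeq2 gave neither an adjusted p. Neither was called in any limma fit with a library left out, and without a mutant library neither passed the filter.

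Among the called genes *pqn-51* and *pqn-82* fell. *pqn-51* had 63.8, 53.8 and 97.0 scaled CPM in *blmp-1(s71)* libraries 1, 2 and 3, against 122, 114 and 138 in wild-type libraries 1, 2 and 3. Its log2 fold change was -0.83 (SE 0.25, limma adjusted p = 0.0380). *pqn-82* had 9.98, 7.17 and 16.7 scaled CPM in the mutant, against 27.1, 18.03 and 21.8 in wild type, and on the log2 scale it changed by -0.98 (SE 0.30, limma adjusted p = 0.0406). In both genes mutant library 3 lay nearest to wild type, and the groups did not overlap. Part of *pqn-51* shares exon sequence with *K11D12.14* on the same strand. The call of both genes was lost with library size alone as the scale, where no member fell, and in every fit with a library left out other than *blmp-1(s71)* library 3.

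**Figure D2:**
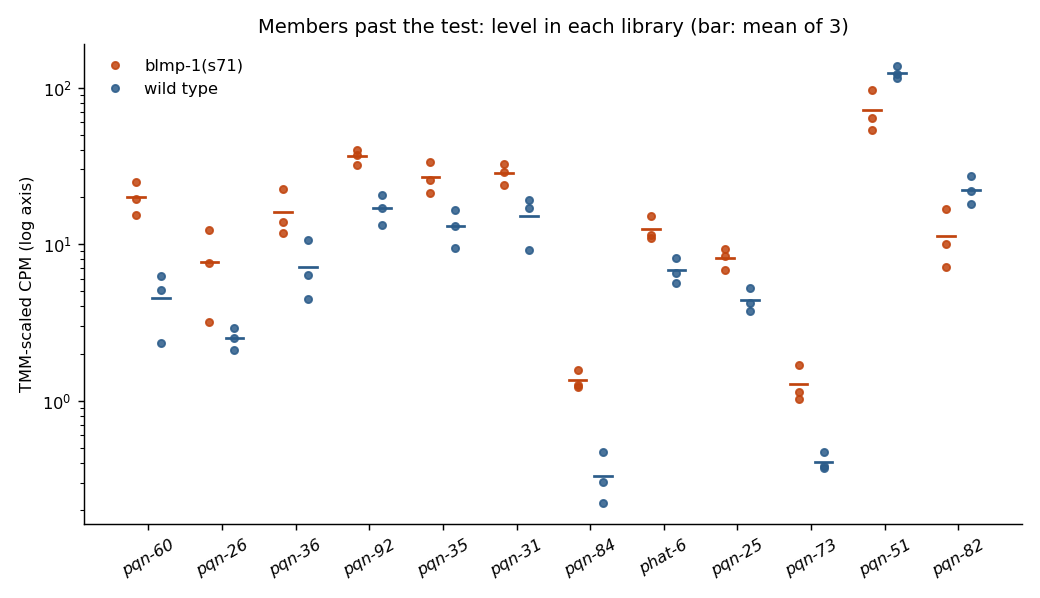
TMM-scaled CPM (log axis) of the 12 genes that passed the test, in the 3 blmp-1(s71) libraries (orange) and the 3 wild-type libraries (blue), with a bar at each mean. The groups do not overlap in any of the 12, and pqn-60 has the largest log2 fold change.

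Over all tested members, every mutant library lay above every wild-type library in 17 genes, or 25.4%, and the same was true of 22.6% of all genes. Of the 17, 3 (*pqn-11*, *pqn-73* and *pqn-84*) passed the filter through the mutant libraries alone, and without genes that passed through 1 group only the share was 14 of 64 members, or 21.9%, and 20.9% of all genes. The reverse held for 6 members, or 8.96%, against 26.0% of all genes. The *abu* genes and *marg-1* contributed to neither count. All 17 were *pqn* genes except *phat-6*.

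No tested *abu* gene passed: limma called 0 of 10 (0 also before adjustment, at p under 0.05) and edgeR 0, while DESeq2 called 1, *abu-13*. All 10 log2 fold changes were positive, from 0.11 (*abu-7*) to 1.19 (*abu-13*), with a median of 0.54, and in all 10 the groups overlapped. In each of the 10, *blmp-1(s71)* library 1 was the highest mutant library and library 3 the lowest, an arrangement found in 16.9% of all tested genes. Wild-type library 3 was the highest wild-type library in 9 of the 10, against 38.4% of all tested genes. In 5 of them mutant libraries 1 and 2 lay above all wild-type libraries while mutant library 3 did not, against 9.91% of all tested genes. The genes move together, so these counts are not independent observations. The arrangements counted here were not among the planned results.

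Per gene length, *abu-14* was the most abundant of the family. The deposited TPM (reads per gene length, scaled to a fixed total) of *abu-14* was 136, 78.8 and 31.5 in *blmp-1(s71)* libraries 1, 2 and 3, against 17.4, 21.9 and 49.9 in wild-type libraries 1, 2 and 3. The mean TPM was 82.0 ± 52.2 in the mutant and 29.7 ± 17.6 in wild type (SD, n = 3 each). Mutant library 3 thus lay inside the wild-type range, and the log2 fold change of 1.09 (SE 0.65) did not pass (limma adjusted p = 0.237). *abu-11*, the second by TPM, had a mean of 20.9 ± 13.4 TPM in the mutant and 14.4 ± 7.04 TPM in wild type. The remaining 8 had mean TPM over all libraries from 4.09 (*abu-12*) to 14.6 (*abu-8*), and their SD over the mutant libraries ran from 4.65 to 15.5 TPM, wider than each step between neighbours in that order.

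*abu-13* had the largest fold change of the family. Its scaled CPM was 46.3, 29.2 and 9.93 in the mutant libraries, against 6.32, 10.4 and 14.8 in the wild-type libraries. Mutant libraries 1 and 2 were above all wild-type libraries, and library 3 lay between wild-type libraries 1 and 2. The log2 fold change of 1.19 (SE 0.56) had a limma adjusted p of 0.143, and without mutant library 3 it was 1.78 (limma adjusted p = 0.00734). In that fit *abu-1* and *abu-8* also passed. The opposite-strand gene *F57B9.3*, which overlaps an exon of *abu-13*, had a log2 fold change of 1.13 and passed (limma adjusted p = 0.0363). It averaged 2.41 ± 1.46 CPM in the mutant and 0.507 ± 0.419 CPM in wild type (SD, n = 3 each). Whether the counting used strand is not given, so reads of the part shared with *abu-13* cannot be assigned with certainty.

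**Figure D3:**
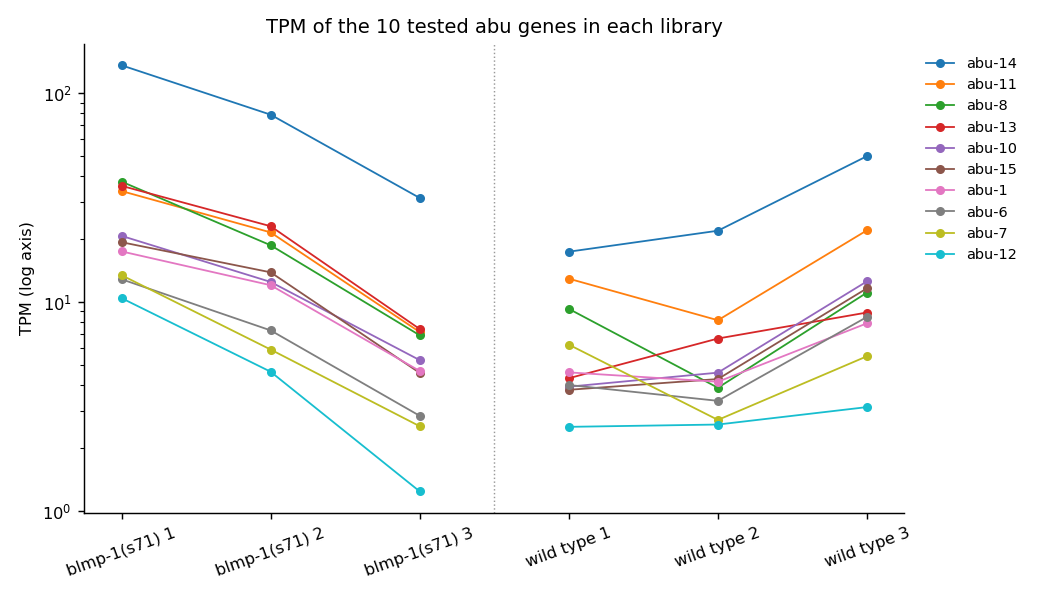
Deposited TPM (log axis) of the 10 tested abu genes in each library, with lines joining the values of 1 gene within a group. In blmp-1(s71) library 1 abu-14 reached 136 TPM and in library 3 it had 31.5 TPM, below the 49.9 TPM of wild-type library 3, and the other 9 genes keep the same arrangement of the mutant libraries.

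Several *abu* and *pqn* genes lie side by side. On chromosome V, *abu-15*, *abu-6*, *abu-7* and *abu-8* follow each other with gaps of 770, 1377 and 28212 bases (5158602 to 5194608 in WBcel235). Their log2 fold changes were 0.56, 0.14, 0.11 and 0.87, none of them called. *abu-15* and *abu-6* each have 388 codons. On the same chromosome *abu-1* and *pqn-2* point away from each other across 615 bases and each have 425 codons. *abu-1* had 17.2, 11.6 and 4.78 scaled CPM in the mutant libraries, against 5.15, 4.94 and 10.04 in the wild-type libraries. *pqn-2* had 9.98, 6.69 and 2.25 in the mutant, against 3.04, 2.97 and 8.33 in wild type, the same arrangement of libraries as its neighbour. *abu-10* lies 17041 bases from *marg-1* on chromosome X.

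Equal coding lengths were also found in *pqn-76*, *abu-5*, *pqn-78* and *pqn-79* on chromosome IV (335 codons each) and in *pqn-57* and *abu-9* on chromosome X (378 each). These 6 genes had from 0 to 8 reads in all libraries together. How reads that fit several copies were counted is not given in the sources used here. Reads of such genes, and a count of 0 for them, are therefore uncertain as to the copy.

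Some *pqn* genes had the same arrangement of libraries as the *abu* genes. *pqn-32* had the widest range, with 116, 49.8 and 14.9 scaled CPM in *blmp-1(s71)* libraries 1, 2 and 3, against 9.36, 11.5 and 19.8 in wild-type libraries 1, 2 and 3. Library 3 of the mutant lay inside the wild-type range. Its log2 fold change of 1.71 (SE 0.77) was the second largest of all members and did not pass (limma adjusted p = 0.140), whereas edgeR (adjusted p = 0.0467) and DESeq2 (adjusted p = 0.00266) called it. Without mutant library 3 it stood at 2.47 (limma adjusted p = 0.00678). *pqn-13*, with 24.7, 8.73 and 4.12 in the mutant, against 3.74, 3.73 and 7.22 in wild type, and *pqn-54*, with 36.6, 18.97 and 7.49 in the mutant, against 10.8, 7.07 and 20.8 in wild type, showed it too. Without mutant library 3 *pqn-13* passed (limma adjusted p = 0.0321), and *pqn-54* did not. Over all 51 tested *pqn* genes, 20 (39.2%) had mutant library 1 highest and library 3 lowest, against 16.9% of all tested genes.

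**Figure D4:**
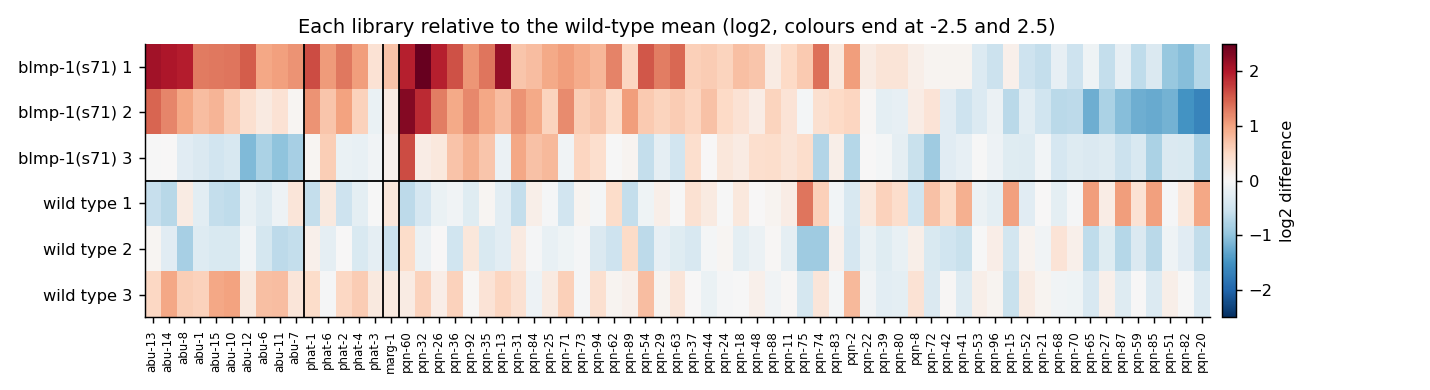
Log2 difference of each library from the wild-type mean for the 67 tested genes (columns, in the same order as the plot of fold changes), with blmp-1(s71) libraries above wild-type libraries. The abu columns are red in blmp-1(s71) library 1, paler in library 2 (0.053 for abu-7) and pale or blue in library 3, while pqn-60 is red in all 3.

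The *phat* genes, products of the pharyngeal glands, had positive log2 fold changes in all 5 tested members, with a median of 0.72. *phat-6* rose. It had 15.04, 11.5 and 10.9 scaled CPM in the mutant libraries, against 8.19, 5.63 and 6.55 in the wild-type libraries, and the groups did not overlap. Its log2 fold change was 0.79 (SE 0.25, limma adjusted p = 0.0454), and the call was lost on omitting any library other than *blmp-1(s71)* library 3.

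*phat-1* had 5.90, 3.85 and 1.31 scaled CPM in *blmp-1(s71)* libraries 1, 2 and 3, against 0.468, 1.45 and 2.08 in wild-type libraries 1, 2 and 3 (log2 fold change 0.94, SE 0.42, limma adjusted p = 0.112). Its neighbour *phat-2*, 673 bases away on the same strand of chromosome I, had 10.1, 7.95 and 2.998 in the mutant, against 2.11, 3.499 and 5.36 in wild type (log2 fold change 0.72). In both, mutant libraries 1 and 2 exceeded all wild-type libraries and library 3 did not, and both passed without library 3. *phat-4*, the most abundant per length at 57.3 ± 24.6 TPM in the mutant and 32.7 ± 11.9 TPM in wild type (SD, n = 3 each), and *phat-3*, at 12.8 ± 3.02 TPM in the mutant and 10.2 ± 1.54 TPM in wild type, did not pass.

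*phat-5* was below the filter. It had 14, 11 and 5 reads in the mutant libraries, against 0, 2 and 1 in the wild-type libraries. With no filter on low values its limma adjusted p was 0.0677. For scale, 3 reads corresponded to 0.219 to 0.456 CPM in the mutant libraries and to 0.197 to 0.571 CPM in the wild-type libraries.

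*marg-1* had 26.0, 18.1 and 16.8 scaled CPM in the mutant libraries, against 19.2, 10.4 and 18.6 in the wild-type libraries. The groups overlapped, and the log2 fold change was 0.34 (SE 0.28, limma adjusted p = 0.353). It overlaps *F47B7.2* on the opposite strand.

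The most abundant members per length were *pqn* genes. *pqn-59*, whose human relative is UBAP2L, an RNA-binding protein of stress granules, led with 363, 244 and 413 TPM in *blmp-1(s71)* libraries 1, 2 and 3, against 629, 361 and 436 TPM in wild-type libraries 1, 2 and 3. On the TMM scale, where library composition is adjusted for, all mutant libraries lay below all wild-type libraries (587, 388 and 696 CPM in the mutant, against 1159, 708 and 911 CPM in wild type). The log2 fold change of -0.75 (SE 0.27) did not pass (limma adjusted p = 0.0572), and without mutant library 3 it was -0.93 and passed (limma adjusted p = 0.0338).

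*pqn-52* and *pqn-53* did not pass the test. In deposited TPM, which are not scaled between libraries, *pqn-52* averaged 123.7 ± 11.8 TPM in the mutant and 133 ± 15.4 TPM in wild type, and *pqn-53* 104 ± 11.1 TPM in the mutant and 102 ± 3.88 TPM in wild type (SD, n = 3 each). On the TMM scale *pqn-52* averaged 188 ± 16.9 CPM in the mutant and 245 ± 42.0 CPM in wild type (log2 fold change -0.37), and *pqn-53* 123 ± 16.7 CPM in the mutant and 144 ± 14.7 CPM in wild type (-0.23). The sign of *pqn-53* therefore differs between the scales, and in both genes the groups overlapped. *pqn-44*, listed in the reference as *tent-5*, a non-canonical poly(A) polymerase, averaged 119.4 ± 32.9 TPM in the mutant and 71.1 ± 14.6 TPM in wild type (log2 fold change 0.45, limma adjusted p = 0.164). Without mutant library 3 it passed, at 0.68 (limma adjusted p = 0.0406). *pqn-83*, at 102 ± 15.6 TPM in the mutant and 68.0 ± 5.68 TPM in wild type, had a log2 fold change of 0.31 and did not pass, although its groups did not overlap.

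The 9 tested *pqn* genes with coding regions of at least 1000 codons shared a pattern that ran across the groups. In all 9, library 1 was the highest library of the mutant and also the highest of wild type, against 49.9% of the 998 tested genes of that length in the whole table. The length class was chosen after the values had been seen. *pqn-87* (1485 codons) had 581, 320 and 458 scaled CPM in *blmp-1(s71)* libraries 1, 2 and 3, against 1376, 407 and 535 in wild-type libraries 1, 2 and 3. *pqn-85*, listed in the reference as *scc-2*, the loader of the cohesin complex that holds sister chromatids together, had 173, 91.3 and 127 in the mutant, against 450, 138 and 173 in wild type. *pqn-20* had 147, 76.2 and 140 in the mutant, against 474, 156 and 189 in wild type. In each of these, wild-type library 1 stood far above the other wild-type libraries, 2.92-fold, 2.89-fold and 2.75-fold over their mean.

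In *pqn-15*, *pqn-65* and *pqn-41* wild-type library 1 stood 2.97-fold, 2.97-fold and 2.52-fold over that mean. *pqn-41* is known for a polyglutamine protein that acts in the death of the male linker cell. *pqn-20* had the most negative log2 fold change of all members, -1.04 (SE 0.45), with no overlap between the groups, and *pqn-85* stood at -0.80 (SE 0.45) and *pqn-87* at -0.60 (SE 0.46). None of these passed by limma (adjusted p = 0.110, 0.200 and 0.328), and DESeq2 called *pqn-20*. Without wild-type library 1 the log2 fold change of *pqn-87* was 0.013. The median difference of library 1 from the mean of libraries 2 and 3, on the log2 scale, was 0.60 in the mutant and 1.46 in wild type over these 9 genes. Over all tested genes of that length it was 0.32 in the mutant and 0.42 in wild type, and over genes under 300 codons it was -0.12 in the mutant and -0.39 in wild type.

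Of the 17 members that were not tested, 5 had no read in any library (*abu-5*, *pqn-57*, *pqn-76*, *pqn-79* and *pqn-91*). The other 12 had between 1 and 78 reads over all 6 libraries together. The most covered was *pqn-67*, with 24, 25 and 6 reads in the mutant libraries, against 0, 10 and 13 in the wild-type libraries. *abu-4* had 5, 4 and 1 reads in the mutant, against 3, 5 and 12 in wild type. *abu-3*, which had 2 reads in all, is annotated as a pseudogene, as is the tested *pqn-11*.

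Genes that act beside the members were read from lists made by name. Of 17 tested genes of the pharyngeal cuticle and of related apical matrices, limma called 3 as higher and *egg-6* as lower, with a median log2 fold change of 0.94. edgeR called 7 and DESeq2 9 of the 17, and over all genes limma called 22.3%, edgeR 17.7% and DESeq2 27.5%. *sym-1*, a leucine-rich repeat protein of the embryonic and larval matrix, averaged 55.8 ± 36.6 CPM in the mutant and 13.1 ± 6.23 CPM in wild type. *let-653*, a secreted matrix protein with a zona pellucida domain, averaged 18.1 ± 3.26 CPM in the mutant and 7.10 ± 2.09 CPM in wild type, and *nep-1*, a neprilysin-like peptidase, 41.1 ± 13.8 CPM in the mutant and 21.8 ± 3.96 CPM in wild type (SD, n = 3 each). *egg-6*, a leucine-rich repeat protein, had a log2 fold change of -1.33. *chs-2*, the chitin synthase of the pharynx, stood at 0.76 (SE 0.36, limma adjusted p = 0.117).

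Of 8 tested regulators of pharyngeal fate and gland function, *kel-1* rose and *pal-1* fell by limma, and edgeR and DESeq2 each called 1. *kel-1*, a kelch-repeat protein of the gland cells, averaged 3.93 ± 0.375 CPM in the mutant and 1.90 ± 0.358 CPM in wild type. *pal-1* is a Caudal-type homeobox gene of posterior and muscle fate rather than of the pharynx, and averaged 34.9 ± 15.004 CPM in the mutant and 75.3 ± 8.51 CPM in wild type (SD, n = 3 each). *pha-4*, the FoxA factor that specifies the pharynx, stood at 0.28 (limma adjusted p = 0.466), and the gland factor *hlh-6* was below the filter. Of 12 molt cycle transcription factors, *grh-1* (1.09), *nhr-85* (1.10) and *lin-29* (0.95) rose and none fell by limma, and edgeR called 3 and DESeq2 5 of the 12. *nhr-23*, which drives molting genes, stood at -0.12 (SE 0.21).

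Of 20 genes of the endoplasmic reticulum unfolded protein response, 0 were called by limma, by edgeR or by DESeq2, and *ckb-2* (log2 fold change 0.74) was the 1 gene with an unadjusted limma p under 0.05. The most abundant, *crt-1*, encodes calreticulin, a chaperone, and averaged 1541 ± 76.6 CPM in the mutant and 1315 ± 314 CPM in wild type (SD, n = 3 each). *hsp-4*, the BiP chaperone that reports this response, averaged 608 ± 152 CPM in the mutant and 522 ± 65.8 CPM in wild type. *xbp-1*, its transcription factor, averaged 349 ± 45.6 CPM in the mutant and 281 ± 51.9 CPM in wild type (SD, n = 3 each). The median log2 fold change of this list was 0.15.

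The level of the *abu* and *phat* genes differed from library to library, as did that of other lists, not all in the same arrangement. Relative to the wild-type mean, the mean of the tested *abu* genes was 1.47, 0.69 and -0.52 on the log2 scale in *blmp-1(s71)* libraries 1, 2 and 3, and -0.29, -0.39 and 0.68 in wild-type libraries 1, 2 and 3. That of the *phat* genes was 1.08, 0.65 and 0.049 in the mutant and -0.23, -0.13 and 0.36 in wild type. The 20 molting genes, of which limma called *mlt-3*, *ptr-4* and *nekl-3* as higher (edgeR called 9 and DESeq2 12), lay at 2.02, 1.42 and 0.50 in the mutant and at -0.31, -0.063 and 0.37 in wild type. All 20 had positive log2 fold changes, with a median of 1.38. Over all genes limma called 22.3%, edgeR 17.7% and DESeq2 27.5%. The 12 oocyte markers, of which 8 fell by limma (edgeR called 7 and DESeq2 12), lay at -1.54, -2.16 and -0.53 in the mutant and at 0.11, -0.22 and 0.11 in wild type. The 8 epidermis markers lay at 1.54, 0.92 and 0.23 in the mutant and at -0.57, -0.052 and 0.62 in wild type. Limma called 2 of them, *col-19* and *lin-26*, both as lower, while edgeR called 5 and DESeq2 6. The other 6 epidermis markers had positive log2 fold changes, so the mean of this list joins opposite directions. The 17 matrix genes lay at 1.44, 0.71 and 0.34 in the mutant and at 0.037, -0.24 and 0.21 in wild type. *noah-1*, *noah-2* and *fbn-1* are in both the matrix and the molting list, and *bli-1* is in both the molting and the epidermis list. The means of these lists are therefore not independent. The 10 sperm markers lay at 0.60, 1.013 and 0.53 in the mutant and at -0.14, -0.18 and 0.32 in wild type. The 8 intestine markers lay at 0.14, 0.15 and 0.17 in the mutant and at -0.18, 0.013 and 0.17 in wild type. For the 8 neuron markers the values were 0.49, 0.51 and 0.23 in the mutant and -0.077, 0.058 and 0.019 in wild type. In the oocyte, sperm, intestine and neuron lists the mutant libraries were arranged differently from those of the *abu* genes. The part of these lists in the members' levels was not tested.

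Taken as a list, the pharyngeal muscle markers did not follow the *abu* genes in every library. The 7 pharyngeal muscle markers, with the pharyngeal myosins *myo-1* and *myo-2* among them, summed to between 1486 and 2461 scaled CPM in the mutant and between 1408 and 2806 in wild type. None was at 0. Limma, edgeR and DESeq2 each called 0 of the 7, and 0 had an unadjusted p under 0.05 by any of them. Their mean was highest in library 1 of both groups, at 0.58 in the mutant and 0.40 in wild type. In *tnc-2* and *tni-4*, however, mutant library 1 was the highest and library 3 the lowest of the mutant, and wild-type library 3 the highest of wild type. The other muscle markers of the pharynx did not share all of this. The 8 body wall muscle markers, of which the same tools called 0 (0 before adjustment), summed to between 10698 and 17035 scaled CPM in the mutant and between 7656 and 19808 in wild type. The 8 pharyngeal gland markers, 6 of them *phat* genes, summed to between 48.0 and 99.3 scaled CPM in the mutant and between 37.7 and 63.8 in wild type.

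**Figure D5:**
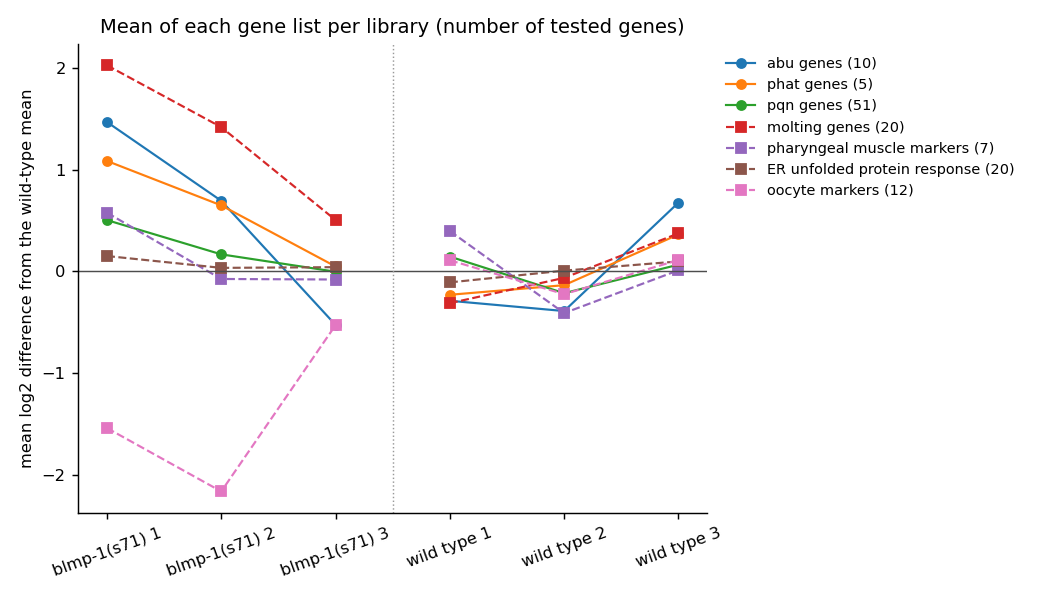
Mean log2 difference from the wild-type mean (y axis) of the tested abu, phat and pqn genes and of 4 other lists in each library, with the number of tested genes in brackets. The abu genes stand at 1.47 in blmp-1(s71) library 1 and at -0.52 in its library 3, and the molting genes, higher than the abu genes in each blmp-1(s71) library, show the same arrangement of those libraries, while the unfolded protein response genes stay near 0.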

How the data were processed

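RNA of whole young adults was sequenced in 3 *blmp-1(s71)* and 3 wild-type libraries, grouped by their titles. The authors deposited 1 CPM and 1 TPM value per gene and library, per the file headers. Each column sums to the same total, which leaves libraries unscaled against each other. Per the submitters' processing notes, the tools were DESeq2 1.22.0, featureCounts 1.6.3, HISAT2 2.1.0 and Trimmomatic 0.36, whose roles and order are not stated there. The sources used here give no build, annotation, strand setting or rule for multiply mapping reads. Positions are from the WBcel235 annotation of Ensembl, which matched all 84 members, and may differ from the authors' build.

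CPM were divided by TMM factors (0.813 to 1.21), and limma 3.58.1 in R 4.3.3, with mean-variance trend and robust moderation, tested log2(scaled CPM + 1) over 13756 genes (at least 3 libraries with CPM 1 or more). The group was its only term, and tests were two-sided with Benjamini-Hochberg adjustment at 0.05. In each library 100% of nonzero CPM were whole multiples of 1 read within 0.01 reads. edgeR 4.0.16 and DESeq2 1.42.0 on these reads called 2438 and 3779 genes. The code was tested on simulated data. The p-values measure the spread between these libraries. Intervals on read counts would cover counting error only.

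The members and gene lists were chosen with earlier results of these data known. Named genes were all called members, the 4 largest log2 fold changes each way, the 3 smallest p in each name family, the 8 highest mean TPM, and in 4 lists up to 4 called genes or, with none called, the most abundant. Others were named after their values were seen. For 11 genes a symbol turned into a date was replaced by the reference symbol. No sequences of the members were used here. The series-wide matrix was left out, since the library files hold the values.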

Additional observations from a re-analysis of the deposited data

How the results depend on the processing

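The number of called members was 12 in the reported fit and lay between 8 and 17 with edgeR (8), DESeq2 (14), pseudocounts of 0.5 (12) and 2 (11), library size alone (12), upper-quartile factors (11), DESeq2 size factors (10) and edgeR with a replicate block (17). These fits called 11.9% to 25.4% of the members. Of all genes, 22.3% were called in the reported fit, 17.7% with edgeR and 27.5% with DESeq2. The share of all genes was 21.4% and 22.7% with pseudocounts of 0.5 and 2, and 17.6% with library size alone. With upper-quartile factors it was 24.3%, with DESeq2 size factors 26.1% and with the edgeR replicate block 37.0%. The number of called members was 1 with no filter on low values, where 115 of all genes were called instead of 3061. It was 3 with TPM in place of CPM (1914 of all genes) and 1 without both replicate-1 libraries (124 of all genes). With 1 library left out it ran from 0 to 22, and the calls over all genes from 34 to 4746, the highest of each without *blmp-1(s71)* library 3. The cause was not tested. *pqn-60* was called in each of these settings except without *blmp-1(s71)* library 2.

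The labels give same-numbered libraries nothing in common but the number. Deviations of same-numbered libraries from their group means correlated at 0.355, 0.443 and -0.0867 for replicates 1, 2 and 3. Mutant libraries 1 and 2 correlated best with their own number, and mutant library 3 did not. Whether the numbers mark pairs was not tested. With a replicate block limma called 21 members and 5877 of all genes, and edgeR 5094 of all genes.

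The median log2 fold change of the members stayed positive in all settings, from 0.081 (without *blmp-1(s71)* library 1, where it was -0.028 over all genes) to 0.67 (library size alone, 0.35 over all genes). The share of all calls that were higher in the mutant was 39.7%, and 60.8% with upper-quartile factors and 94.2% with library size alone (83.5% with no filter). The median of all genes was then 0.18 and 0.35, against 0.07. With library size alone, 12 members rose and 0 fell. Among uncalled members the sign turned for *pqn-53* with library size alone (0.097), for *pqn-22* without *blmp-1(s71)* library 1 (-0.039) or wild-type library 2 (-0.0066), and for *pqn-87* without wild-type library 1 (0.013). Over these omissions *pqn-22* ran from -0.039 to 0.305 and *pqn-87* from -0.962 to 0.013. Of the values of the named members under all settings, 375 kept direction and call, 93 lost the call, 21 gained it and 4 changed sign. The filter on low values kept 17 of the 84 members out of the test, and with no filter 79 were tested.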

Other observations

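The reference annotation names a further pair of *phat* genes that the deposited table lists under other names, so the naming rule did not take them in. They were looked up after the values had been seen. *F15A4.6*, listed in the reference as *phat-8*, had 44.0, 45.1 and 47.6 scaled CPM in *blmp-1(s71)* libraries 1, 2 and 3, against 23.9, 20.2 and 20.8 in wild-type libraries 1, 2 and 3. The groups did not overlap, and mutant library 3 was the highest of its group, unlike in *phat-1*, *phat-2* and *phat-4*. The log2 fold change was 1.04 (SE 0.21, limma adjusted p = 0.0278). *C49G7.3*, listed as *phat-7*, had 132, 69.2 and 86.0 scaled CPM in the mutant, against 77.2, 42.1 and 63.98 in wild type. The groups overlapped, and the log2 fold change of 0.63 (SE 0.29) did not pass (limma adjusted p = 0.111).

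The members as a whole took 0.450%, 0.371% and 0.3598% of the reads in *blmp-1(s71)* libraries 1, 2 and 3, and 0.473%, 0.323% and 0.352% in wild-type libraries 1, 2 and 3. The *abu* genes took 0.0383%, 0.0246% and 0.00859% in the mutant and 0.00662%, 0.00782% and 0.0163% in wild type. The share of the *abu* genes in *blmp-1(s71)* library 3 was thus lower than that in wild-type library 3 and higher than in wild-type libraries 1 and 2. In scaled CPM the *abu* genes summed to 79.6 in *blmp-1(s71)* library 3, against 81.4, 79.2 and 185 in wild-type libraries 1, 2 and 3.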
